A study of Danio rerio with 9 samples.

Results

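Genes of the cell division cycle were compared between the proepicardium, the heart tube and the pericardium of zebrafish larvae at 60 hours post fertilisation. The genes were chosen by symbol: cyclins of the A, B, D and E classes, the cyclin-dependent kinases cdk1, cdk2, cdk4 and cdk6, cdc25 phosphatases, genes whose symbol starts with cdkn (mostly kinase inhibitors), origin licensing and helicase genes (orc, cdc6, cdc45 and mcm), replication fork and nucleotide genes (pcna, top2a, rrm1, rrm2 and tyms), mitotic kinases and checkpoint genes (aurk, plk1, plk4, bub1 and cdc20), centromere and spindle genes (cenp, ndc80, nuf2 and kif11) and mki67. The symbol pattern matched 84 of the 32520 genes of the count table, and 80 of them had a total of at least 10 counts over the 9 libraries. Just outside that limit were cdkn2a/b with 4 counts, cdc25d with 2, cdkn2d with 1 and ccnb1ip1 with 0. Just inside it were cdk4 with 18, ccnd3 with 24 and a row named mcm6 (ENSDARG00000033231) with 44. These 3 did not pass the filter on low counts, so 77 genes were tested. The pattern also caught aurkaip1, cdkn2aip, cdkn2aipnl and mcm3ap, which carry a cell cycle symbol inside a longer name. They are kept apart in counts by role, but stay among the 77 genes in all counts, shares and medians of the 77.

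A cell copies its genome once per division because origins of replication are licensed in G1, when the origin recognition complex and Cdc6 load the ring of Mcm2 to Mcm7 onto DNA. D-type cyclins with Cdk4 or Cdk6 and E-type cyclins with Cdk2 drive entry into S phase, while A- and B-type cyclins with Cdk1 drive mitosis, and Cdkn1 proteins hold these kinases in check. Many of these genes are transcribed by E2F factors or late in the cycle, so their messages are commonly read as a sign of proliferation. Roles given below are those known from yeast, Xenopus, mouse or human proteins.

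Proepicardium gave 4 libraries, the heart tube 3 and the pericardium 2. The proepicardium is the cell cluster on the pericardial wall from which the epicardium forms, the heart tube holds the myocardium, and the pericardium was taken from the dorsal wall of the cavity. All fish were of strain AB with the genotype epi:eGFP;myl7:mRFP, so every group carried both reporters, and at least 10 organs dissected by hand were pooled per library. Cells were not sorted, and cDNA was amplified from low input, so fewer cells of a type and less RNA per cell cannot be told apart. The labels do not say whether pools came from separate clutches or days, and p-values therefore measure the spread between these samples, which may be technical.

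Library totals ran from 8882853 to 17663992 gene counts in proepicardium samples, from 13805356 to 19397355 in the heart tube, and were 18621244 and 12461434 in the pericardium. The 7 cardiomyocyte marker genes, which include myl7, summed to between 126 and 522 CPM in proepicardium samples, between 43146 and 53161 CPM in heart tube samples, and to 109 and 29.7 CPM in pericardium samples (CPM, the depth-scaled count unit, here with TMM-adjusted library sizes). The 5 epicardial and proepicardial markers summed to 16.6, 11.3, 44.1 and 34.8 CPM in proepicardium samples and to 18.2, 104 and 47.2 CPM in heart tube samples. In pericardium samples their sum was 8.27 and 5.99 CPM. As a sum they did not separate the proepicardium from the heart tube, while every library of both tissues lay above the pericardium. Within that list wt1a was at 0.249 to 1.1 CPM in proepicardium samples and listed at 0 in the 3 heart tube libraries, whereas aldh1a2 was at 6.88 to 30.9 CPM in proepicardium samples and at 13.1, 100 and 45.4 CPM in heart tube samples. The 8 epidermal markers summed to between 10821 and 44552 CPM in proepicardium samples, between 171 and 5949 CPM in heart tube samples, and to 51748 and 71157 CPM in pericardium samples. None of the 8 was at 0, and 6 of them were called higher in proepicardium than in heart tube samples and 7 lower in heart tube than in pericardium samples. Within the proepicardium, libraries 3 and 4 stood apart: genes with a symbol starting with MT- took 21.15% and 20.98% of their counts, against 8.01% and 9.77% in libraries 1 and 2. The MT- share was 15.64%, 13.38% and 19.61% in heart tube samples, and 6.85% and 8.23% in pericardium samples. As sums, markers of several other cell types were also higher in proepicardium libraries 3 and 4. Erythroid markers summed to 816 and 728 CPM in libraries 3 and 4, against 319 and 188 CPM in libraries 1 and 2. Skeletal muscle markers summed to 847 and 734 CPM, against 297 and 183 CPM. Endothelial, neural and pigment sums were also higher in libraries 3 and 4. Within these lists fli1a, tie1, tubb5, sox10, dct and tyrp1b were higher in both of these libraries than in libraries 1 and 2. In contrast, kdrl, cdh5, pecam1, elavl3, elavl4 and pmela overlapped between libraries 1 and 2 and libraries 3 and 4. The sum of the epicardial and proepicardial markers was higher too, at 44.1 and 34.8 CPM, against 16.6 and 11.3 CPM in libraries 1 and 2. Within that list wt1b did not follow, at 1.01, 0.995, 2.58 and 0.772 CPM in libraries 1 to 4. Epidermal markers went the other way, at 10821 and 26998 CPM in libraries 3 and 4, against 43412 and 44552 CPM in libraries 1 and 2. Cardiomyocyte markers, at 174, 163, 522 and 126 CPM in libraries 1 to 4, did not set these libraries apart. Nor did liver markers, at 276, 144, 314 and 118 CPM, or macrophage markers, at 147, 46.6, 77.8 and 5.96 CPM. The slc4a1a row ENSDARG00000024560 of the erythroid list did not either, at 18.4, 5.72, 4.42 and 8.5 CPM.

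The 80 genes took a small share of all counts in every library. It was 0.2132%, 0.1778%, 0.3176% and 0.2469% in the 4 proepicardium libraries, 0.1349%, 0.2258% and 0.1712% in heart tube samples, and 0.1853% and 0.1707% in pericardium samples. Proepicardium 3 was the highest library and heart tube 1 the lowest, and the ranges of the tissues overlapped. Proepicardium 3 also had the single highest level in 35 of the 77 tested genes (45.5%), against 11.9% of all 17003 genes tested. Heart tube 1 had the single lowest level in 40 of 77 (51.9%), against 16.8% of all genes tested. Proepicardium 3 had the lowest epidermal sum of its tissue, at 10821 CPM, and heart tube 1 the highest of its own, at 5949 CPM. The part of these marker and library values in the results below was not tested. Counts of calls, counts of positive values and medians over the 77 genes are given also without the libraries concerned. Counts by role, counts of non-overlapping libraries and values of the list of further cell cycle genes are given for all 9 libraries only.

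**Figure D1:**
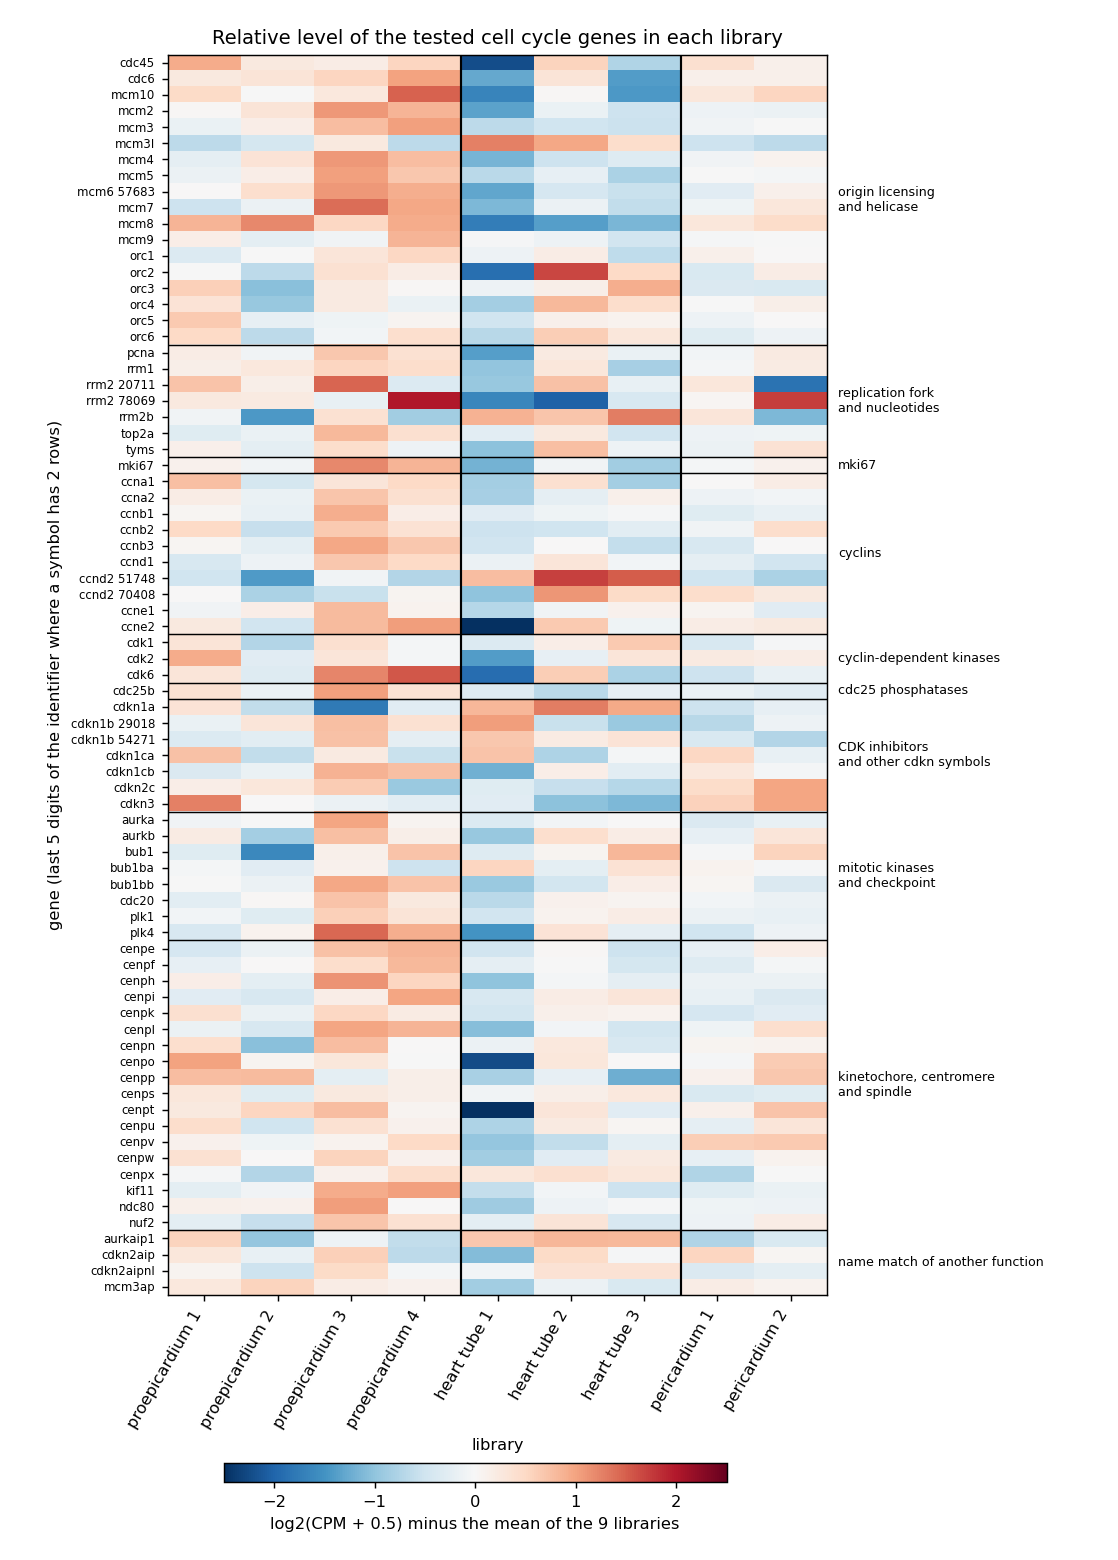
Level of the 77 tested cell cycle genes in each of the 9 libraries, as log2(CPM + 0.5) minus the mean of the 9 libraries, with genes in rows by role and colours clipped at the ends of the scale. Red runs through proepicardium 3 and 4 in most roles and blue through heart tube 1, while ccnd2, cdkn1a and rrm2b show the opposite colours in the heart tube.

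The first comparison set the proepicardium, a source of epicardial cells, against the heart tube. Several replication genes were higher in the proepicardium, led by the Mcm helicase subunits, while ccnd2 and rrm2b were lower there. A log2 fold change of 1 is a doubling, and SE is its approximate standard error, derived from the test statistic. A gene was called when its edgeR p, adjusted over all genes tested, was under 0.05. With edgeR, 11 of the 77 genes (14.3%) were called, 9 of them higher and 2 lower in the proepicardium. Of all genes tested, 29.4% passed in this comparison, 16.8% higher and 12.7% lower, about double the share of the cell cycle genes. Their median log2 fold change was 0.54, against 0.17 for all genes tested, and 60 of 77 (77.9%) had a positive value, against 55.6% of all genes. At an unadjusted p under 0.05, edgeR gave 23 of the 77, against 40.2% of all genes tested. Most cell cycle genes thus lay on the side of the proepicardium without a call of their own.

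Much of that shift depended on proepicardium 3 and 4. Without both, an alternative chosen after seeing the data, the median was 0.22 against 0.11 for all genes, and 50 of 77 had a positive value. In that fit 4 genes were called, 3 of them among the 11, against 28.6% of all genes tested. The 23 genes at an unadjusted p under 0.05 became 10 by edgeR without both, 15 without proepicardium 4, 17 without heart tube 1 and 16 with the replicate block. Without proepicardium 3 alone, 11 genes were called (29.2% of all genes tested), 9 of them among the 11 called with all libraries. Then 57 of 77 were positive and the median was 0.46, against 0.16 for all genes. Without proepicardium 4 alone, 3 genes were called, against 25.6% of all genes tested. The median was then 0.53, against 0.14 for all genes, and 59 of 77 were positive. Without heart tube 1 alone, 4 were called (27.9% of all genes tested), 56 of 76 were positive and the median was 0.38, against 0.19 for all genes. Without heart tube 3 the count was 5, against 23.2% of all genes tested. Calls also became fewer without pericardium 1, which enters this comparison only through the shared filter, scaling and estimate of spread. The median was then 0.48, against 0.09 for all genes.

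Origin licensing and helicase genes held 6 of the 9 higher calls: of 18 tested, 6 were higher and none lower in the proepicardium. Of all genes tested, 16.8% were higher and 12.7% lower. The median log2 fold change of the 18 was 1.01, against 0.17 for all genes. Mcm2 to Mcm7 form the ring that unwinds DNA at the replication fork. The summed level of their 6 main rows was 167, 220, 368 and 327 CPM in proepicardium samples, 86.6, 139 and 122 CPM in heart tube samples, and 163 and 181 CPM in pericardium samples. All 4 proepicardium values exceeded all 3 heart tube values, and libraries 3 and 4 lay furthest above them. mcm6 (ENSDARG00000057683) stood at 46.8, 62.3, 98.6 and 87.7 CPM in proepicardium samples, 18.5, 34.3 and 31.4 CPM in heart tube samples, and 37.8 and 50.4 CPM in pericardium samples. The heart tube was below every library of the other tissues. Its log2 fold change in the proepicardium over the heart tube was 1.40 ± 0.35 (SE; edgeR adjusted p = 0.0113), and it passed in 19 of 20 alternatives, the exception being the one without proepicardium 3 and 4 (0.96, edgeR adjusted p = 0.0662).

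The other subunits followed the same order with smaller margins. mcm2 averaged 50.8 ± 16.7 CPM in proepicardium samples (SD, n = 4) and 21.4 ± 8.2 CPM in heart tube samples (SD, n = 3), a log2 difference of 1.25 ± 0.36 (edgeR adjusted p = 0.0226). mcm4 was at 27.8, 41.7, 70.2 and 56.4 CPM in proepicardium samples and at 14.3, 22.7 and 26.2 CPM in heart tube samples (1.22 ± 0.36, edgeR adjusted p = 0.0246). Its lowest proepicardium library lay just above its highest heart tube library. mcm3 averaged 47.6 ± 17.3 CPM in proepicardium samples and 22.2 ± 1.23 CPM in heart tube samples, and its log2 fold change was 1.1 ± 0.32 (edgeR adjusted p = 0.0236). mcm5 was at 27.4, 34.0, 62.1 and 48.8 CPM in proepicardium samples and at 18.8, 26.3 and 17.3 CPM in heart tube samples (1.05 ± 0.33, edgeR adjusted p = 0.034). Proepicardium 1 and heart tube 2 nearly met, although the groups did not overlap. mcm7 had a fold change of similar size, 1.38 ± 0.59, but its libraries overlapped and it did not pass (edgeR adjusted p = 0.103). Of 20 alternatives, the call was lost in 4 for mcm2, 8 for mcm3, 6 for mcm4 and 12 for mcm5. limma on the log2 values ended the calls of mcm3, mcm4 and mcm5, and the replicate block those of mcm3 and mcm5. The call of mcm5 was also lost with no filter and with the 2 tissues alone. The calls of mcm2, mcm3, mcm4 and mcm5 were each lost without proepicardium 4, without heart tube 1, and without proepicardium 3 and 4. Leaving out 1 library also ended the call of mcm2 for heart tube 3, of mcm3 for heart tube 2, heart tube 3 or pericardium 1, of mcm4 for heart tube 2 or pericardium 1, and of mcm5 for any library but proepicardium 1 or 2.

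mcm8 had the largest fold change among the called cell cycle genes. Mcm8 is a relative of the replicative ring that works with Mcm9 in repair by homologous recombination. It had 56, 50, 39 and 30 counts in proepicardium samples, 2, 4 and 5 counts in heart tube samples, and 39 and 26 counts in pericardium samples. As levels, these were 3.25 ± 0.719 CPM in proepicardium samples (SD, n = 4), 0.265 ± 0.149 CPM in heart tube samples (SD, n = 3) and 2.11 ± 0.215 CPM in pericardium samples (SD, n = 2). The heart tube lay far below the other tissues in every library, at only a few counts. The log2 fold change in the proepicardium over the heart tube was 3.61 ± 0.68 (edgeR adjusted p = 0.00218), and the call was kept in all 19 alternatives in which the gene was tested. Its partner mcm9 had a log2 fold change of 0.51 ± 0.52 and did not pass (edgeR adjusted p = 0.5).

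Further licensing genes did not pass the test in this comparison. cdc6, the loader of the ring, was at 12.3, 12.9, 15.2 and 21.1 CPM in proepicardium samples and at 3.92, 12.9 and 3.58 CPM in heart tube samples (1.17 ± 0.47, edgeR adjusted p = 0.0809). Heart tube 2 reached the level of the proepicardium. mcm10, which helps to activate the helicase, had a log2 difference of 1.96 ± 0.80 (edgeR adjusted p = 0.0873), and cdc45 one of 0.97 ± 0.61 (edgeR adjusted p = 0.259). The 6 origin recognition genes orc1 to orc6 ranged from -0.77 for orc2 to 0.34 for orc1, with edgeR adjusted p-values of at least 0.51. All 6 ring subunits had a positive value, while the origin recognition genes had 2 positive and 4 negative ones. mcm3l, an mcm3-like gene, had 0, 1, 7 and 0 counts in proepicardium samples, 25, 15 and 7 counts in heart tube samples and 1 and 0 counts in pericardium samples, and did not pass (edgeR adjusted p = 0.104).

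**Figure D2:**
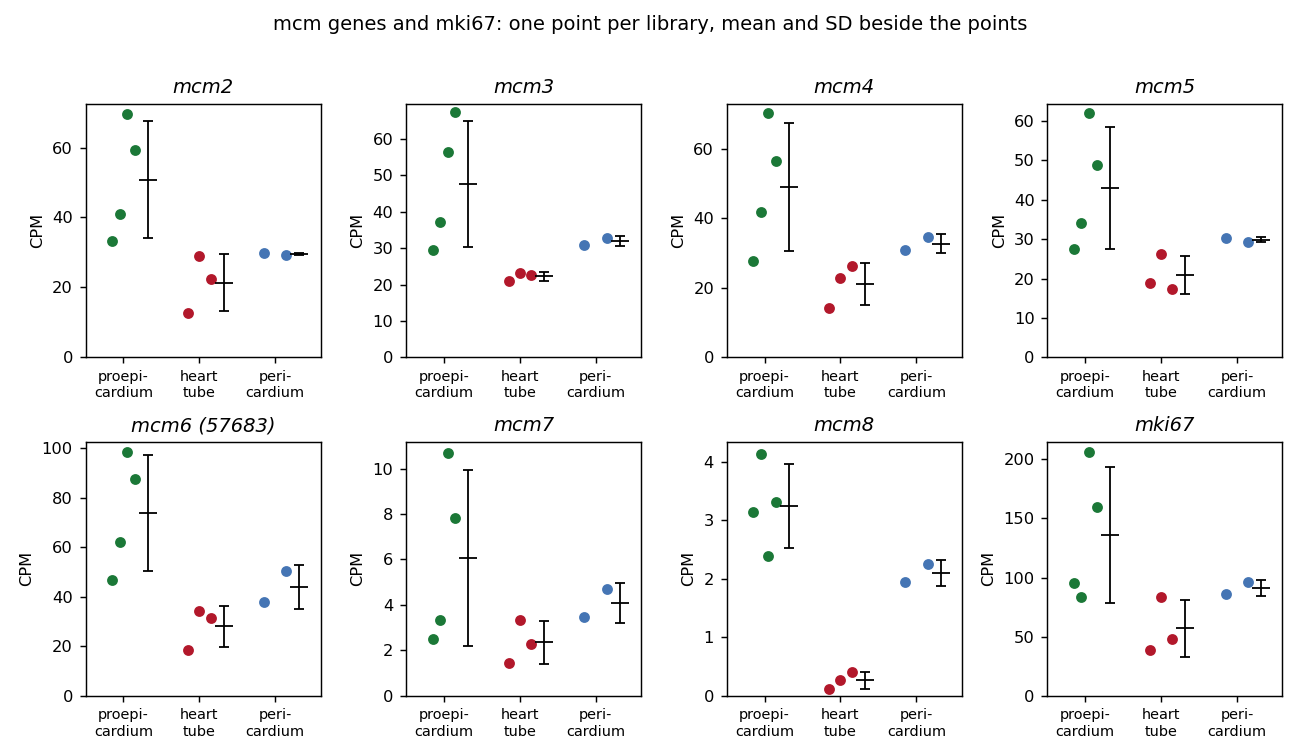
CPM of mcm2 to mcm8 and mki67, with 1 point per library and the mean and SD of each tissue (n = 4, 3 and 2) beside the points. The 3 heart tube points of mcm8 lie between 0.11 and 0.407 CPM, below all others, while the mcm2 to mcm7 panels show proepicardium libraries 3 and 4 above libraries 1 and 2.

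mki67 encodes the Ki-67 protein that coats mitotic chromosomes and is a common marker of cycling cells. It was at 95.1, 83.6, 206 and 160 CPM in proepicardium samples, 38.7, 83.9 and 48.1 CPM in heart tube samples, and 86.1 and 96.0 CPM in pericardium samples. Proepicardium 2 and heart tube 2 were at nearly the same level, so the groups touched, and proepicardium 3 and 4 carried the highest values. The log2 fold change in the proepicardium over the heart tube was 1.26 ± 0.40 (edgeR adjusted p = 0.0324), and mki67 lost its call in 8 of 20 alternatives. Without proepicardium 3 and 4 it was no longer called (edgeR adjusted p = 0.217), and leaving out any one of proepicardium 3, proepicardium 4, heart tube 1, heart tube 3 or pericardium 1 also ended the call.

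Among replication fork and nucleotide genes, 1 of 7 was higher and 1 lower in the proepicardium, against 16.8% and 12.7% of all genes tested. pcna, the sliding clamp of DNA polymerase, was at 269, 220, 377 and 307 CPM in proepicardium samples, 90.3, 275 and 209 CPM in heart tube samples, and 223 and 276 CPM in pericardium samples. Heart tube 1 was far below all other libraries and heart tube 2 was within the range of the proepicardium (0.61 ± 0.37, edgeR adjusted p = 0.247). top2a, the topoisomerase that untangles replicated chromosomes, averaged 46.8 ± 17 CPM in proepicardium samples and 35.7 ± 9.73 CPM in heart tube samples (0.39 ± 0.33, edgeR adjusted p = 0.411). rrm1, the large subunit of ribonucleotide reductase, had a log2 difference of 0.76 ± 0.34 (edgeR adjusted p = 0.118), and tyms, which makes thymidylate, one of 0.03 ± 0.40 (edgeR adjusted p = 0.962).

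The small subunit of ribonucleotide reductase is encoded by rrm2, used in S phase, and by rrm2b, which p53 induces in human cells. A pair of identifiers carried the symbol rrm2, and the files do not say how they differ. The row ENSDARG00000078069 was at 18.9, 18.6, 13.8 and 64.9 CPM in proepicardium samples, 4.75, 3.52 and 11.8 CPM in heart tube samples, and 16.4 and 53.5 CPM in pericardium samples. All heart tube libraries were below all others, and proepicardium 4 and pericardium 2 stood far above the rest of their tissues. Against heart tube samples it was called higher in proepicardium samples (2.12 ± 0.69, edgeR adjusted p = 0.0399), and the call was lost in 10 of 20 alternatives, among them those without proepicardium 1, 2 or 4 and without heart tube 1 or 2. The other row, ENSDARG00000020711, was at 46.4, 31.0, 77.6 and 22.2 CPM in proepicardium samples, 14.3, 47.0 and 24.8 CPM in heart tube samples, and 34.3 and 7.47 CPM in pericardium samples, and was not called (0.63 ± 0.59, edgeR adjusted p = 0.465). It was low where the first row was high: its share of the rrm2 sum was 25.5% in proepicardium 4 and 12.3% in pericardium 2, against 62.5% to 93.0% in the other 7 libraries. With near-identical copies, counting could have split reads between the rows, so their separate levels are uncertain. Their sum was 65.2, 49.6, 91.4 and 87.1 CPM in proepicardium samples, 19.0, 50.5 and 36.6 CPM in heart tube samples, and 50.7 and 61.0 CPM in pericardium samples. As a sum, rrm2 was called higher in the proepicardium with a smaller fold change (1.05 ± 0.37, edgeR adjusted p = 0.049), and heart tube 2 then lay just above proepicardium 2.

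**Figure D3:**
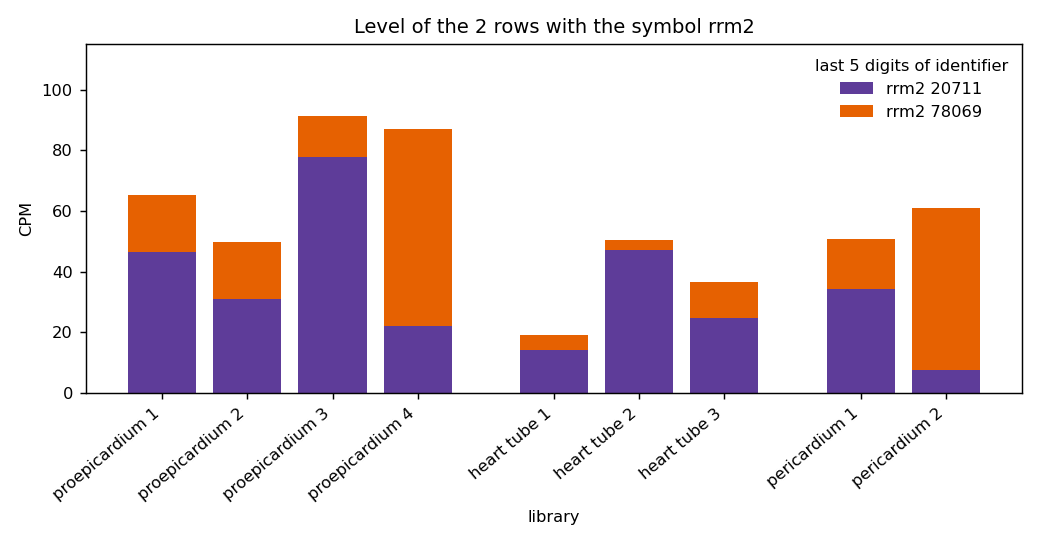
CPM of the 2 rows with the symbol rrm2, stacked for each of the 9 libraries. The upper row, ENSDARG00000078069, makes up most of the bar in proepicardium 4 and pericardium 2, and the lower row, ENSDARG00000020711, makes up most of it in the other 7 libraries.

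rrm2b went the other way. It was at 18.0, 6.71, 24.8 and 10.2 CPM in proepicardium samples, 35.0, 31.2 and 46.8 CPM in heart tube samples, and 23.7 and 8.42 CPM in pericardium samples. Every heart tube library was above every other library. The log2 fold change in the proepicardium over the heart tube was -1.33 ± 0.46 (edgeR adjusted p = 0.0485), close to the threshold, and the call was lost in 8 of 20 alternatives, among them those without proepicardium 1, 2 or 4 and without any one heart tube library. As a share of all small subunit counts, rrm2b made up 21.7%, 11.9%, 21.4% and 10.4% in proepicardium samples, 64.8%, 38.2% and 56.2% in heart tube samples, and 31.8% and 12.1% in pericardium samples. The balance between the paralogues thus differed in every heart tube library from the proepicardium.

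Of the 10 cyclins tested, 1 was called, lower in the proepicardium, against 12.7% of all genes tested. A positive log2 fold change was found in 8 of the 10, against 55.6% of all genes. The called gene, ccnd2 (ENSDARG00000051748), a D-type cyclin that relays growth signals to Cdk4 and Cdk6, also had the smallest p-value of the 77 genes in this comparison. It stood at 36.8, 19.2, 48.7 and 31.1 CPM in proepicardium samples, 88.8, 172 and 150 CPM in heart tube samples, and 36.8 and 29.7 CPM in pericardium samples. The heart tube was higher in every library. Its log2 fold change in the proepicardium over the heart tube was -2.01 ± 0.36 (edgeR adjusted p = 0.00158), with values between -2.28 and -1.54 and a call in all 20 alternatives. Its paralogue ccnd1 was at 93.4, 112, 196 and 173 CPM in proepicardium samples and at 111, 151 and 117 CPM in heart tube samples (0.19 ± 0.32, edgeR adjusted p = 0.7). The counts of ccnd2 were 0.394, 0.172, 0.249 and 0.18 times those of ccnd1 in the proepicardium, 0.802, 1.14 and 1.28 times in heart tube samples, and 0.351 and 0.339 times in pericardium samples. This ratio within a library does not depend on scaling, and its heart tube values lay above all others without overlap.

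The remaining cyclins did not pass the test between proepicardium and heart tube. The E-type cyclin ccne2 was at 12.3, 7.21, 18.2 and 21.8 CPM in proepicardium samples and at 1.33, 16.4 and 9.53 CPM in heart tube samples (0.71 ± 0.65, edgeR adjusted p = 0.45). ccna2, active from S phase to mitosis, was at 36.7, 28.4, 52.1 and 42.7 CPM in proepicardium samples and at 17.7, 27.5 and 34.9 CPM in heart tube samples (0.59 ± 0.32, edgeR adjusted p = 0.191). The mitotic cyclin ccnb1 averaged 52.1 ± 18.9 CPM in proepicardium samples and 38.4 ± 3.46 CPM in heart tube samples (0.44 ± 0.31, edgeR adjusted p = 0.308). For all 3 genes the libraries of the tissues overlapped. ccnd3 was too low to test, with 9, 4, 1 and 5 counts over proepicardium samples, 0 in all of the heart tube and 4 and 1 over pericardium samples. A count of 0 allows up to 3 counts, or 0.155 to 0.217 CPM in these heart tube libraries.

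None of the 3 cyclin-dependent kinases tested was called. cdk1, the mitotic kinase, averaged 77.2 ± 24.8 CPM in proepicardium samples and 87.0 ± 29.6 CPM in heart tube samples (-0.17 ± 0.35, edgeR adjusted p = 0.751), so the means lay closer than the spread between libraries. cdk6, a partner of D-type cyclins, ranged from 0.995 to 4.97 CPM in proepicardium samples and from 0 to 2.35 CPM in heart tube samples (1.57 ± 1.07, edgeR adjusted p = 0.298). cdk4 held at most 6 counts in any library and was not tested. The phosphatase cdc25b, which removes the inhibitory phosphate from Cdk1, was at 74.6, 51.4, 117 and 73.8 CPM in proepicardium samples and at 45.6, 35.6 and 49.7 CPM in heart tube samples. Its libraries did not overlap, but its log2 fold change of 0.86 ± 0.32 did not pass (edgeR adjusted p = 0.0614).

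The 7 cdkn genes held no call in this comparison. cdkn1a encodes p21, an inhibitor induced by p53. It was at 4.00, 1.82, 0.552 and 2.43 CPM in proepicardium samples, 5.85, 8.15 and 6.35 CPM in heart tube samples, and 2.0 and 2.6 CPM in pericardium samples. Every heart tube library exceeded all others, and the log2 fold change in the proepicardium over the heart tube, -1.62 ± 0.58, missed the threshold (edgeR adjusted p = 0.0537) and passed it in 6 of 20 alternatives. Of the rows named cdkn1b, which encodes p27, ENSDARG00000054271 averaged 55.5 ± 22.5 CPM in proepicardium samples and 72.0 ± 12.2 CPM in heart tube samples (-0.38 ± 0.32, edgeR adjusted p = 0.421). The other row, ENSDARG00000029018, averaged 8.24 ± 2.24 CPM in proepicardium samples and 6.91 ± 5.72 CPM in heart tube samples (0.25 ± 0.52, edgeR adjusted p = 0.756). cdkn1ca, a p57 gene, averaged 78.0 ± 36.1 CPM in proepicardium samples and 79.5 ± 40.3 CPM in heart tube samples (-0.03 ± 0.43, edgeR adjusted p = 0.971). Its values ran from 48.9 to 125 CPM in proepicardium samples and from 43.4 to 123 CPM in heart tube samples, so the spread within each tissue exceeded the difference between them.

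**Figure D4:**
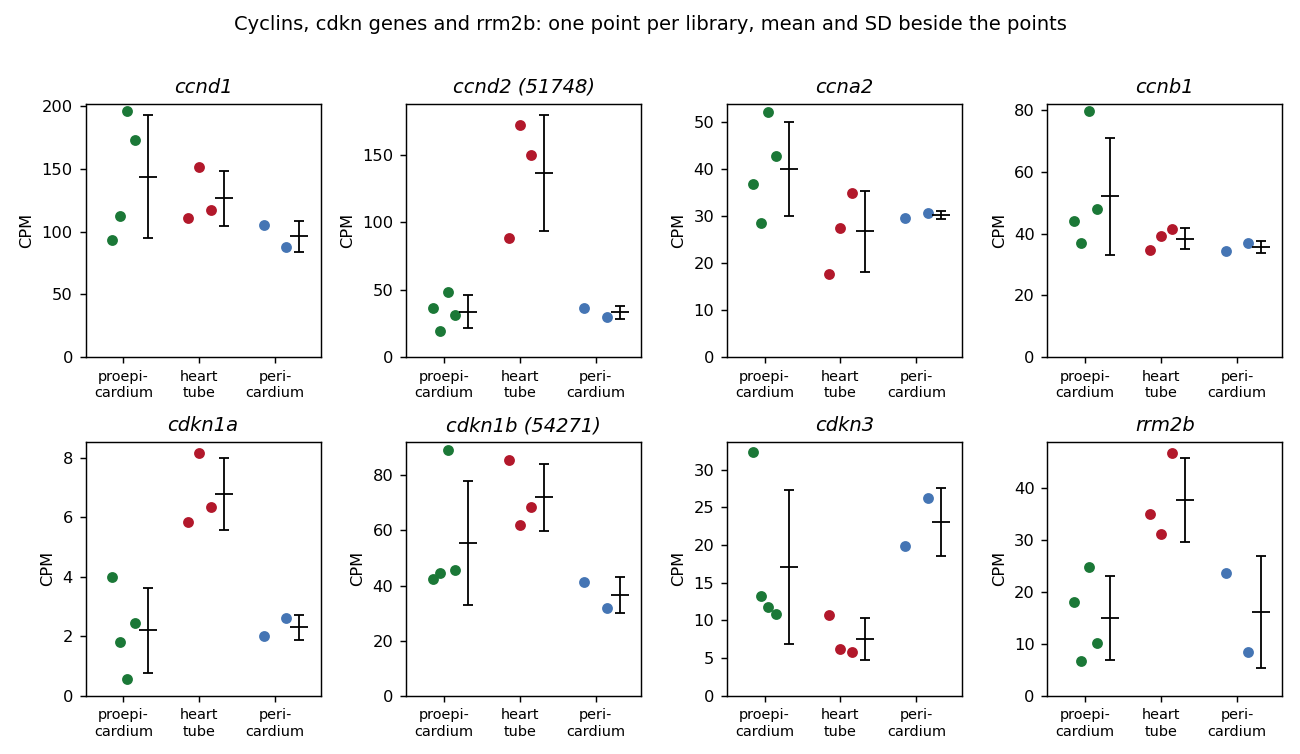
CPM of 4 cyclins, 3 cdkn genes and rrm2b, with 1 point per library and the mean and SD of each tissue (n = 4, 3 and 2) beside the points. For ccnd2, cdkn1a and rrm2b the 3 heart tube points lie above all others, while ccnd1, ccna2 and ccnb1 overlap between proepicardium and heart tube.

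Genes of mitosis were mostly not separated. None of the 8 mitotic kinase and checkpoint genes was called, and their median log2 fold change was 0.29, against 0.17 for all genes. plk1, which drives mitotic entry, averaged 55.9 ± 15.4 CPM in proepicardium samples and 48.0 ± 11.1 CPM in heart tube samples (0.22 ± 0.30, edgeR adjusted p = 0.626). aurkb, the kinase that corrects chromosome attachment, averaged 29.0 ± 12.3 CPM in proepicardium samples and 25.7 ± 11.1 CPM in heart tube samples (0.18 ± 0.42, edgeR adjusted p = 0.786). cdc20, an activator of the anaphase-promoting complex, averaged 29.6 ± 8.92 CPM in proepicardium samples and 23.1 ± 6.54 CPM in heart tube samples (0.36 ± 0.32, edgeR adjusted p = 0.44). In each of these genes the libraries overlapped.

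Of 18 centromere, kinetochore and spindle genes, 16 had a positive log2 fold change in the proepicardium over the heart tube, against 55.6% of all genes tested. Their median was 0.62, against 0.17 for all genes, and 1 was called. This was cenpp, a protein of the inner kinetochore, at 26.3, 26.7, 12.8 and 16.8 CPM in proepicardium samples, 8.45, 13.1 and 6.27 CPM in heart tube samples, and 16.5 and 24.5 CPM in pericardium samples. Proepicardium 3 lay just below heart tube 2, so the groups overlapped, and here libraries 1 and 2 were the highest of the proepicardium. Its log2 fold change stood at 1.15 ± 0.38 (edgeR adjusted p = 0.0403). It was lost in 11 of 20 alternatives, among them those without proepicardium 1, 2 or 4, heart tube 1 or 3, or either pericardium library, and kept without proepicardium 3 and 4.

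Counting libraries gave a similar picture to the test. In 12 of the 77 genes every proepicardium library was above every heart tube library, against 19.8% of all genes tested, and in 5 genes every one was below, against 16% of all genes tested. The shares of the 77 were 15.6% and 6.49%, both under those of all genes. Of the 11 called genes, mki67 and cenpp were the ones whose libraries overlapped.

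The proepicardium was next set against the pericardium, the wall on which the cluster sits. No cell cycle gene was called by edgeR, and none of the 17003 genes was (0% called). At an unadjusted p under 0.05, edgeR gave 0 of the 77 genes and 833 of all genes (4.9%). DESeq2 and limma on the deposited log2 values gave 0 cell cycle genes at both levels, while limma-voom with quality weights gave 0 by adjusted p and 5 at the unadjusted level. Without proepicardium 1, and likewise without proepicardium 2, edgeR gave 6 cell cycle genes at the unadjusted level and 0 by adjusted p. With 2 pericardium libraries the intervals stayed wide. For mki67, the log2 fold change in the proepicardium over the pericardium was 0.58 with a 95% interval of -0.39 to 1.55, for mcm6 (ENSDARG00000057683) it was 0.74 (-0.12 to 1.61), and for pcna it was 0.23 (-0.69 to 1.16). Differences up to those limits lie within the intervals, and a p that misses the threshold does not show equal levels.

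Direction was nonetheless shared by most genes: 63 of 77 (81.8%) had a positive log2 fold change in the proepicardium over the pericardium, against 48.4% of all genes tested, with a median of 0.34 against -0.02. Without proepicardium 3 and 4, 46 of 77 were positive and the median was 0.08, against -0.00 for all genes. Without proepicardium 2, 70 of 77 were positive and the median was 0.58, against 0.04 for all genes, while the replicate block, which leaves out proepicardium 4, gave 54 of 77 and a median of 0.17. In 8 genes every proepicardium library was above both pericardium libraries, against 7.65% of all genes tested, and in 2 genes below both, against 7.75%. The 8 were mcm2, mcm8, cdc6, cdc25b, aurka, cenpk, ndc80 and the inhibitor gene cdkn1b (ENSDARG00000054271). These 8 are 10.4% of the 77 and the 2 are 2.6%.

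None of the named genes was called between these tissues. ccnd2 (ENSDARG00000051748) averaged 34.0 ± 12.3 CPM in proepicardium samples and 33.2 ± 5.0 CPM in pericardium samples (0.03 ± 0.40). Log2 fold changes of the others were 0.58 ± 0.37 for ccnd1, 0.32 ± 0.73 for ccne2, 0.41 ± 0.36 for ccna2 and 0.55 ± 0.35 for ccnb1. They were 0.25 ± 0.40 for cdk1, 0.53 ± 0.38 for mcm5, 0.37 ± 0.38 for top2a, 0.34 ± 0.37 for cdc20, 0.10 ± 0.47 for aurkb and 0.35 ± 0.35 for plk1. Among inhibitors they were -0.06 ± 0.67 for cdkn1a, -0.15 ± 0.49 for cdkn1ca, and 0.60 ± 0.38 and 0.81 ± 0.61 for the cdkn1b rows ENSDARG00000054271 and ENSDARG00000029018. Each of these had an edgeR adjusted p of at least 0.971.

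**Figure D5:**
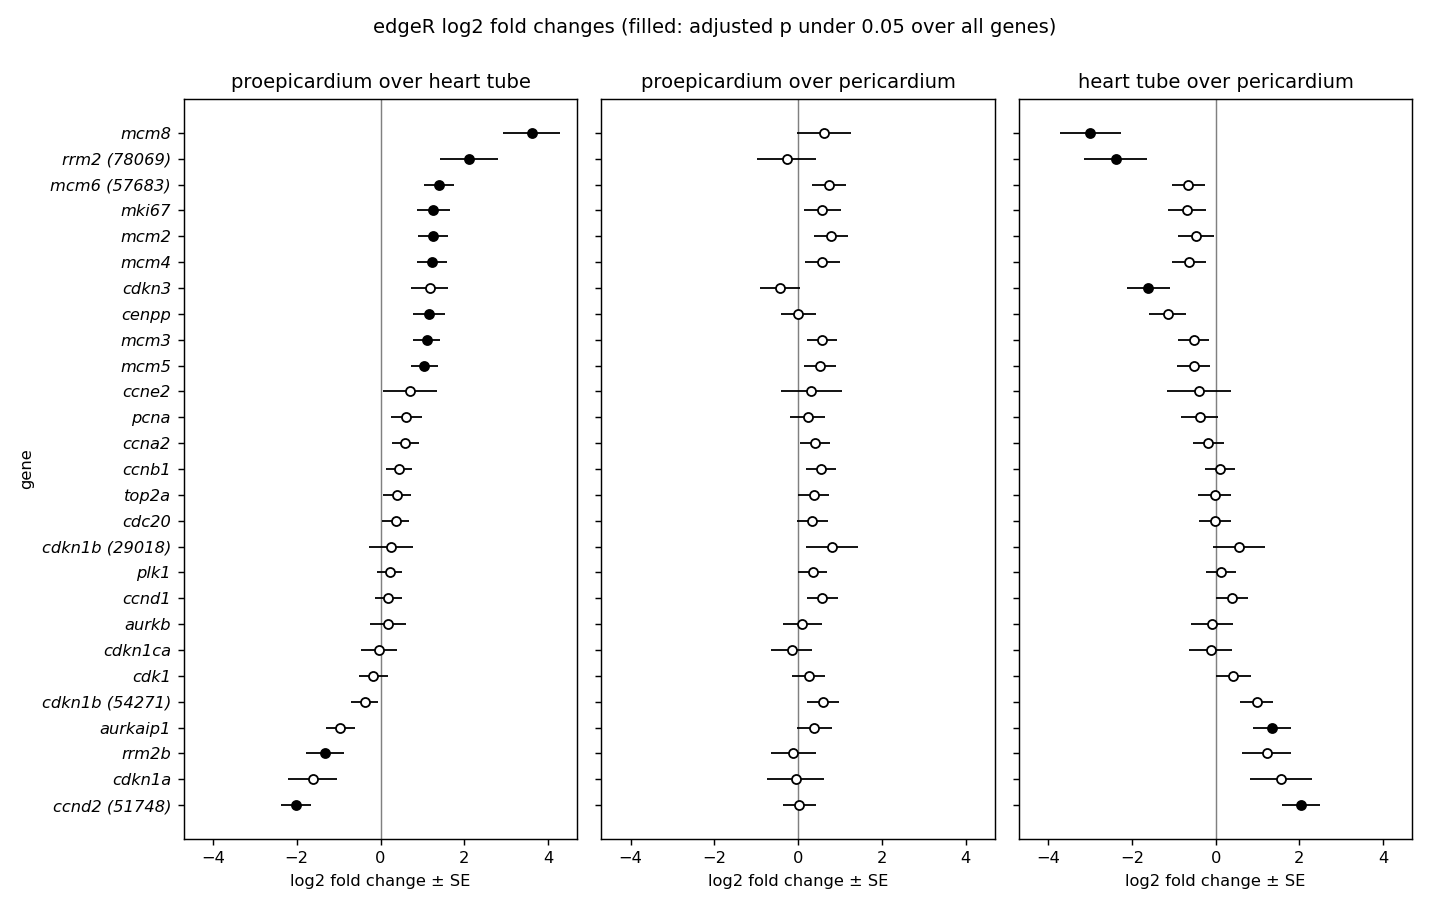
edgeR log2 fold changes with SE of the named cell cycle genes in the 3 comparisons, with filled points for an adjusted p under 0.05 over all genes. The called points of the left panel lie at 1.05 or more for mcm2 to mcm6, mcm8, mki67, cenpp and rrm2 and at -1.33 and -2.01 for rrm2b and ccnd2, and the middle panel has no filled point.

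The comparison of heart tube and pericardium set unsorted tissue that holds the myocardium against unsorted tissue from the wall of the cavity. It shares the heart tube libraries with the comparison of proepicardium and heart tube, so the 2 are not independent. edgeR called 5 of the 77 (6.49%), with 2 higher in heart tube samples, 1 of them the name match aurkaip1, and 3 lower. Of all genes tested, 27.1% were called, 11% higher and 16.1% lower. The median log2 fold change was -0.16 against -0.09 for all genes, and 26 of 77 were positive (33.8% against 46.8%). At an unadjusted p under 0.05, edgeR gave 9 of the 77, against 38% of all genes tested. These 9 became 5 without heart tube 1 and 3 without pericardium 2. Without heart tube 1 the median was 0.04, against -0.07 for all genes, and 41 of 76 were positive. With all libraries but no filter on low counts it was -0.02, and 38 of 80 were positive (47.5% against 47.2% of all genes). With a mean count of at least 50 it was -0.04, against 0.09 for all genes, with 45.3% positive against 53.4%. The direction of the group was thus not kept in every alternative. Without heart tube 2 the median was -0.28, against -0.07 for all genes, and with the replicate block -0.30, against -0.10. Without proepicardium 2 the median was -0.00, with 38 of 77 positive, but that of all genes was then 0.08, with 52.5% positive. Without pericardium 1 the median was -0.05, against 0.12 for all genes, and without pericardium 2 it was -0.09, against -0.00. With a single pericardium library left, the counts of calls were 1 (without pericardium 1) and 0 (without pericardium 2). Without heart tube 1, heart tube 3 or proepicardium 2, each left out singly, 3 genes were called, and without proepicardium 3 and 4 there were 8. Shares of all genes called are not set beside these counts. The counts alone thus do not tell a change in these genes from one in all genes.

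ccnd2 (ENSDARG00000051748) was higher in the heart tube, at 137 ± 43.1 CPM (SD, n = 3), than in the pericardium, at 33.2 ± 5.0 CPM (SD, n = 2), with a log2 difference of 2.04 ± 0.46 (edgeR adjusted p = 0.00666). The call was kept in 19 of 20 alternatives and lost without pericardium 2 (edgeR adjusted p = 0.0734). mcm8 was lower in the heart tube, with 2, 4 and 5 counts there and 39 and 26 counts in pericardium samples (-2.99 ± 0.72, edgeR adjusted p = 0.00989), and its call was lost when either pericardium library was left out. cdkn3, a phosphatase that acts on cyclin-dependent kinases, was at 10.7, 6.15 and 5.78 CPM in heart tube samples and at 19.9 and 26.3 CPM in pericardium samples (-1.61 ± 0.51, edgeR adjusted p = 0.0339). Its call was lost in 7 of 20 alternatives, among them those without proepicardium 2, heart tube 2 or 3, or either pericardium library. In the proepicardium it was at 32.3, 13.3, 11.8 and 10.8 CPM, with library 4 just above the highest heart tube library (1.18 ± 0.44 in the proepicardium over the heart tube, edgeR adjusted p = 0.065).

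The other 2 calls need their context. rrm2 (ENSDARG00000078069) was lower in the heart tube than in the pericardium (-2.39 ± 0.76, edgeR adjusted p = 0.04, lost in 10 of 20 alternatives, among them those without proepicardium 1 or 2, heart tube 1 or 2, or either pericardium library), but the sum of both rrm2 rows was not called (-0.66 ± 0.42, edgeR adjusted p = 0.287). aurkaip1 matched the rule through its name and is known as a protein of the mitochondrial ribosome. It was at 108, 119 and 118 CPM in heart tube samples and at 39.4 and 51.1 CPM in pericardium samples (1.35 ± 0.45, edgeR adjusted p = 0.0417), and the call was lost without any one heart tube or pericardium library. In the proepicardium it was at 98.5, 33.9, 61.2 and 43.7 CPM, below every heart tube library.

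The ring subunits mcm2 to mcm7 were lower in the heart tube than in the pericardium without passing. Of the 18 licensing and helicase genes tested, 9 had every heart tube library below both pericardium libraries, among them mcm2 to mcm7 and the called mcm8. The reverse held for 2 of the 18, and 5 had a positive log2 fold change. Over all 77 genes this held for 17 (22.1%), against 32.9% of all genes tested, and the reverse for 11 (14.3%), against 25.2%. mki67 averaged 56.9 ± 23.9 CPM in heart tube samples and 91.1 ± 7.05 CPM in pericardium samples (-0.68 ± 0.45, edgeR adjusted p = 0.309). mcm5 had a log2 difference of -0.52 ± 0.39 (edgeR adjusted p = 0.364) and pcna one of -0.38 ± 0.44 (edgeR adjusted p = 0.584). The mitotic genes of the fixed set had no common direction, each with an edgeR adjusted p of at least 0.521. cdk1 was at 0.42 ± 0.42, ccnb1 at 0.10 ± 0.36, plk1 at 0.13 ± 0.36, cdc20 at -0.01 ± 0.38, aurkb at -0.08 ± 0.50 and top2a at -0.02 ± 0.39. Of the 18 centromere, kinetochore and spindle genes, 4 were positive, against 46.8% of all genes. Their median was -0.18, against -0.09 for all genes, and none was called. Of the 8 mitotic kinase and checkpoint genes, 4 were positive, with a median of 0.0. ccnd1 was at 0.39 ± 0.39, ccna2 at -0.17 ± 0.37 and ccne2 at -0.40 ± 0.76, with edgeR adjusted p-values of at least 0.511. Among inhibitors, the log2 fold changes were 1.56 ± 0.73 for cdkn1a (edgeR adjusted p = 0.139), 0.98 ± 0.40 for cdkn1b ENSDARG00000054271 (edgeR adjusted p = 0.0942), 0.56 ± 0.63 for cdkn1b ENSDARG00000029018 (edgeR adjusted p = 0.572) and -0.12 ± 0.52 for cdkn1ca (edgeR adjusted p = 0.895).

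A list of further cell cycle genes outside the symbol rule (E2F factors and their regulators, replication fork proteins, condensin, spindle and anaphase genes) had 100 tested identifiers. In the proepicardium over the heart tube 6 were higher and none lower by edgeR, with a median of 0.48, and 19 had an unadjusted p under 0.05. Those with the smallest p-values were e2f8, a repressor of the E2F family, at 16.7 ± 6.09 CPM in proepicardium samples and 5.51 ± 2.19 CPM in heart tube samples (1.60 ± 0.40, edgeR adjusted p = 0.0107), hmmr, a spindle protein (1.38 ± 0.37, edgeR adjusted p = 0.0161), and gmnn, which encodes the licensing inhibitor geminin (0.99 ± 0.27, edgeR adjusted p = 0.0179). The share called, 6 of 100, was under the 29.4% of all genes tested. By part, 3 of 41 mitosis genes were higher (median 0.60) and 1 of 38 licensing and replication fork genes (median 0.38). Of 21 G1/S regulators and E2F factors, 2 were higher (median 0.42). Of all genes tested, 16.8% were higher, with a median of 0.17. Neither of the other comparisons had a call in this list by edgeR. At an unadjusted p under 0.05 there were 0 in the proepicardium over the pericardium and 1 in the heart tube over the pericardium.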

How the data were processed

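The deposited table of raw counts holds whole reads per Ensembl gene, not normalised by the authors. A deposited table of log2 values was used for 1 alternative only, and how the authors made it is not stated in the labels. The submitters' processing notes name CASAVA 1.8, fastp, STAR, featureCounts, DESeq2 and the builds GRCz11 and danRer11, without roles. Strandedness and annotation release are not given in the sources used here. Reads of overlapping, antisense or near-identical genes may therefore be assigned wrongly. Of 32536 rows, 16 are construct sequences. These rows, with up to 0.0309% of a library's reads, did not enter library sizes or tests.

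The test was the quasi-likelihood test of edgeR 4.0.16 under R 4.3.3 (genes kept by filterByExpr, minimum count 10 and minimum total 15; TMM; robust glmQLFit; glmQLFTest). All 9 libraries entered 1 model with tissue as the only factor, and p-values were adjusted by Benjamini-Hochberg over 17003 genes, with calls at an adjusted p under 0.05. The common biological coefficient of variation was 0.528. CPM use TMM-adjusted library sizes. A count of 0 allows up to 3 counts, which is 0.155 to 0.338 CPM by library. Without molecular identifiers, such limits cover counting error only. Ties counted for no library in the counts of highest and lowest libraries. The model code was tested on simulated counts.

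Samples were grouped by their titles. The text on the series design gives 3 proepicardium samples, and the 4 of the sample labels were used. Symbols came from a table that named 29201 of the 32520 genes, and are written in lower case here. For 4 symbols (ccnd2, cdkn1b, mcm6 and rrm2) a pair of rows was told apart by identifier. The members and lists were chosen with earlier results of these data known. Named genes were a fixed set (mki67, pcna, top2a, ccnd1, ccne2, ccna2, ccnb1, cdk1, mcm5, cdc20, aurkb, plk1, cdkn1a, cdkn1bb and cdkn1ca) and all called members. cdkn1bb could be matched only to both cdkn1b rows. Other genes named were chosen after their values were seen. Alternatives were DESeq2 size factors, other library sizes, 2 filters, DESeq2 1.42.0, limma 3.58.1 on counts and on the log2 values, the 2 tissues alone, a replicate block and leaving out each library. Added after seeing the data were leaving out proepicardium 3 and 4 and summing rows of the same symbol. No sequence was used.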

Additional observations from a re-analysis of the deposited data

Results flagged for a closer look

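Among 28 sets of proepicardium values examined, 3 had 1 library far from the other 3 by Dixon's test at the 95% level, which chance alone would flag in about 1 of 20. cdkn1b (ENSDARG00000054271) reached 89.1 CPM in proepicardium 3, against 42.4 to 45.8 CPM in the other 3 libraries. cdkn3 reached 32.3 CPM in proepicardium 1, against 10.8 to 13.3 CPM in the others. rrm2 (ENSDARG00000078069) reached 64.9 CPM in proepicardium 4, against 13.8 to 18.9 CPM in the others, and the other rrm2 row was at its lowest of the tissue in the same library, at 22.2 CPM.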

How the results depend on the processing

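Called genes kept their direction: over 16 called values and 318 alternatives, 223 kept the call, 95 lost it and none changed sign. In the proepicardium over the heart tube, the 11 calls became 17 with DESeq2, 7 with the replicate block and 4 without proepicardium 3 and 4. They were 3 to 11 when single proepicardium or heart tube libraries were left out. The share of all genes called moved too, from 29.4% to 35%, 24.2% and 28.6% in the same order. It was 23.2% to 29.2% when single libraries of these tissues were left out. Similar counts did not always hold the same genes. Without heart tube 2, 6 of the 11 genes called (23.5% of all genes) were among the 11 of the main fit. With limma on the log2 values 4 of 10 were (23.9% of all genes called), and with DESeq2 size factors all 11 (29.3%). In the heart tube over the pericardium, the 5 calls became 3 with a mean count of at least 50, 11 with limma-voom, 8 with the 2 tissues alone, 3 with the replicate block and 8 without proepicardium 3 and 4, and 0 to 7 when single libraries were left out. Shares of all genes called are not set beside these counts of the heart tube over the pericardium. The counts alone thus do not tell a change in these genes from one in all genes. The proepicardium over the pericardium had 0 in all 20 alternatives. The causes were not tested. Deviations of same-numbered proepicardium and heart tube libraries correlated at 0.037, 0.025 and 0.06, and those of differently numbered ones at -0.095 to 0.048. Same-numbered proepicardium and pericardium libraries were at 0.083 and 0.129, and heart tube and pericardium ones at -0.018 and 0.025. Deviations from the mean of so few libraries are tied to each other, so these values cannot decide whether libraries were paired. The block also left out proepicardium 4, without which the fit without a block gave 3, 0 and 5 calls. The first of these counts stood against 25.6% of all genes tested. Leaving out 1 pericardium library leaves a lone sample assumed to vary like the other tissues. mcm8 was not tested with a mean count of at least 50.

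Log2 fold changes that changed sign all belonged to genes that were not called. In the proepicardium over the heart tube without proepicardium 3 and 4, they were -0.09 for top2a, -0.03 for cdkn1b (ENSDARG00000029018), -0.23 for aurkb, -0.13 for plk1, -0.29 for ccnd1 and 0.13 for cdkn1ca. In the proepicardium over the pericardium without these libraries, they were 0.01 for cdkn1ca, -0.11 for top2a, -0.31 for aurkb, -0.02 for pcna and mki67, -0.01 for plk1, 0.36 for cdkn1a and -0.28 for ccne2. With the replicate block, the proepicardium over the heart tube gave 0.13 for cdkn1ca and -0.01 for ccnd1, the proepicardium over the pericardium -0.10 for aurkb, 0.02 for cdkn1a and -0.10 for ccne2, and the heart tube over the pericardium -0.03 for ccnb1 and plk1. With limma-voom, the proepicardium over the heart tube gave 0.12 for cdkn1ca and -0.08 for aurkb, and the proepicardium over the pericardium -0.01 for aurkb. cdkn1a in the proepicardium over the pericardium was 0.01 with no filter and with the 2 tissues alone, and the summed cdkn1b rows gave -0.31 in the proepicardium over the heart tube. In the heart tube over the pericardium, top2a was 0.00 with DESeq2 size factors and with DESeq2, 0.03 with other library sizes, 0.12 with no filter, 0.09 with a mean count of at least 50, and 0.01 with limma-voom and with the 2 tissues alone. cdc20 was 0.01, 0.01, 0.04, 0.12, 0.10, 0.08 and 0.01 in the same order, aurkb was 0.06 with no filter, 0.03 with a mean count of at least 50 and 0.07 with limma-voom, and cdkn1ca was 0.03 with no filter.

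Leaving out single libraries gave these ranges where a sign changed. In the proepicardium over the heart tube they were -0.37 to 0.44 for cdkn1ca, -0.11 to 1.2 for cdkn1b (ENSDARG00000029018), -0.12 to 0.43 for aurkb and -0.37 to 0.10 for cdk1. In the proepicardium over the pericardium they were -0.47 to 0.34 for cdkn1ca, -0.11 to 0.44 for aurkb and -0.54 to 0.32 for cdkn1a. In the heart tube over the pericardium they were -0.54 to 0.46 for cdkn1ca, -0.17 to 0.14 for top2a, -0.28 to 0.28 for aurkb, -0.11 to 0.25 for cdc20, -0.41 to 0.09 for ccna2, -0.33 to 0.99 for cdkn1b (ENSDARG00000029018) and -1.08 to 0.16 for ccne2.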
